A study of Mus musculus with 62 samples.

Results

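In all, 10 surface genes of 3 families were followed cell by cell in KPC1199-EGFP, a pancreatic cancer line of the mouse. The uroplakins Upk1b, Upk1a and Upk3b, the L6-type 4-transmembrane genes Tm4sf1, Tm4sf4, Tm4sf5 and Tm4sf20, and the Ly6 genes Ly6a, Ly6e and Ly6c1 were taken by name from a table of 19112 genes. They were selected on earlier results of the same counts, in which Upk1b, Tm4sf20 and Ly6a led principal components, so their levels and correlations are descriptions and support nothing further. Of the 10 genes, 9 had a row. Upk1a had none and was not measured. No p-value was computed, since all cells came from 1 culture.

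The line carries EGFP on a C57BL/6 background and was grown without treatment, attached to plastic, up to passage 9. Cells were freed with trypsin, captured and amplified on a Fluidigm C1 chip, and each of the 62 libraries came from 1 cell. All libraries form 1 group from 1 culture, so what holds for the line and what held in that dish cannot be told apart. No tumour or animal sample was analysed here.

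The 50 libraries in which ERCC spike-ins, synthetic RNAs added in known amount, took under 20% of the counts were used, and the other 12 are described last. The 50 held between 2153895 and 12868806 gene counts (median 7194657) and between 6832 and 11068 detected genes. Their spike-in share ran from 0.190% to 1.83%. The epithelial keratin genes Krt18 and Krt8 were above 0 in 50 of 50 libraries, with mean levels of 11.11 ± 0.63 and 10.99 ± 0.72 (SD, n = 50 libraries) on the log2(CPM + 1) scale, where CPM is a gene's share of the gene counts scaled to 1e+06.

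Uroplakins are membrane proteins of the bladder lining. Upk1a and Upk1b are tetraspanins that pair with other uroplakins, and Upk3b is a partner of Upk1b that is also known from mesothelium. The Tm4sf proteins cross the membrane 4 times and are known from gut, liver and tumour epithelium, Tm4sf1 being the L6 antigen of human carcinomas. The Ly6 proteins are small extracellular domains held to the membrane by a GPI lipid anchor. Ly6a is Sca-1, the mouse antigen used to sort blood stem cells, Ly6c1 encodes a form of the Ly6C antigen of monocytes and endothelium, and Ly6a and Ly6e are known targets of interferon.

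Ly6a, Ly6c1 and Ly6e lie on chromosome 15, and Ly6a and Ly6c1 share stretches of sequence, which bears on how their counts can be read. The first 90 coding bases of each are printed 5′ to 3′ from GENCODE M21, with capitals at the bases that differ from Ly6a at the same position. Ly6c2, a close relative of Ly6c1, is added for comparison.
Ly6a: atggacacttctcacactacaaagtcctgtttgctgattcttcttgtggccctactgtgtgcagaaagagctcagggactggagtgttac
Ly6c1: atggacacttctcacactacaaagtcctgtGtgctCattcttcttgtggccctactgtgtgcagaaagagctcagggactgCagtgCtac
Ly6c2: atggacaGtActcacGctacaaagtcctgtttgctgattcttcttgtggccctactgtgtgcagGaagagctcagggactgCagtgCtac
Ly6e: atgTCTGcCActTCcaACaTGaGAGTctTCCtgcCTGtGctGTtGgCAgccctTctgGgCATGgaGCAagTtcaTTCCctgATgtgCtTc
Within these 90 bases Ly6c1 differed from Ly6a at 4 positions, Ly6c2 at 6 and Ly6e at 46. Over the whole coding sequence, 402 bases in Ly6a and 393 in Ly6c1, the identity of Ly6a with Ly6c1 was 81.8%, and the longest run they shared was 48 bases. Ly6e was 49.3% identical to Ly6a, with a longest shared run of 8 bases, and Ly6c1 and Ly6c2 were 97.7% identical.

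The authors' counts are estimates in which reads that match several transcripts are divided among them. Of the 1259 distinct 31-base words in Ly6a transcripts, 21.9% also occurred in Ly6c1 and 31.9% in any other gene. Of the 1758 words in Ly6c1 transcripts, 581 also occurred in Ly6c2 and 822, or 46.8%, in any other gene. For Ly6e the share was 0.422%, for Tm4sf1 it was 0.650%, and for Upk1b, Upk3b, Tm4sf4, Tm4sf5 and Tm4sf20 it was 0%. Of the values above 0, 18.6% were whole numbers for Ly6a, 52% for Ly6e and 0% for Ly6c1, against 100% for Upk1b and the 4 Tm4sf genes. Of the Ly6e words, 17 also occurred in other genes, 15 of them in Ly6e-ps1. Whether the fractional values of Ly6e came from these was not tested. The levels of Ly6a and Ly6c1 are uncertain to the extent that reads were divided between them.

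Tm4sf1 and Tm4sf4 lie on chromosome 3 and were the most abundant of the 9 genes. The 250 bases before their start sites are printed from RefSeq (GRCm38.p6), at chr3:57301989-57302238 on the minus strand and chr3:57425160-57425409 on the plus strand, with capitals at the only motif match found.
Tm4sf1: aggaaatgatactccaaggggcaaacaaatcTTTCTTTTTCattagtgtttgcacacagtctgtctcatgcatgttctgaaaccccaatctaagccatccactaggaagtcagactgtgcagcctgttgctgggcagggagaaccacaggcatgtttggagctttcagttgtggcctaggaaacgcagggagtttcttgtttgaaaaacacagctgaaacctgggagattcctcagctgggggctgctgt
Tm4sf4: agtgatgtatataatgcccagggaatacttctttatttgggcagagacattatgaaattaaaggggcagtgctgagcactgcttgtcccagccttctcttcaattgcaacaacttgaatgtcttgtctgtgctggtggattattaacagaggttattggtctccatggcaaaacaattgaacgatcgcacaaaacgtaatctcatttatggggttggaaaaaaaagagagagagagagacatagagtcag
In all, 5 motifs were searched on both strands. The AP-1 motif TGANTCA occurred in 6.75% of 32851 mouse promoters of this length, and the TEAD motif GGAATG in 12.6%. The GAS element of STAT factors, TTCNNNGAA, occurred in 7.02%. The interferon-stimulated response element (ISRE), written as a pair of GAAA runs with 2 bases between them, occurred in 2.98%, and the TATA box TATAAA in 12.4%. Tm4sf1 held 1 ISRE match and Tm4sf4 held none of the 5. The other promoters in the RefSeq table, which covered 6 of the 10 genes, held 1 TEAD match (Upk3b) and 1 TATAAA (1 of 2 starts of Ly6c1), and none for Upk1a or Tm4sf5. A match is a string of letters and does not show a site in use.

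The 9 genes spanned the whole range of detection. Tm4sf1, Tm4sf4 and Ly6e were above 0 in all 50 libraries, as were 11.4% of all genes. Ly6a was above 0 in 43 libraries, Tm4sf20 in 39, Upk1b in 31, Ly6c1 in 27, Tm4sf5 in 9 and Upk3b in 0. Of the 9 genes, 7 were above 0 in at least 25 libraries, against 48.6% of all genes, and 7 of 9 reached 1 CPM in at least 25, against 42% of all genes. Upk3b was among the 20.8% of genes above 0 in no library. The genes had been chosen with their levels known, so nothing is read from these shares. The 9 genes together took between 0.269% and 1.83% of a library's gene counts (median 0.906%).

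**Figure D1:**
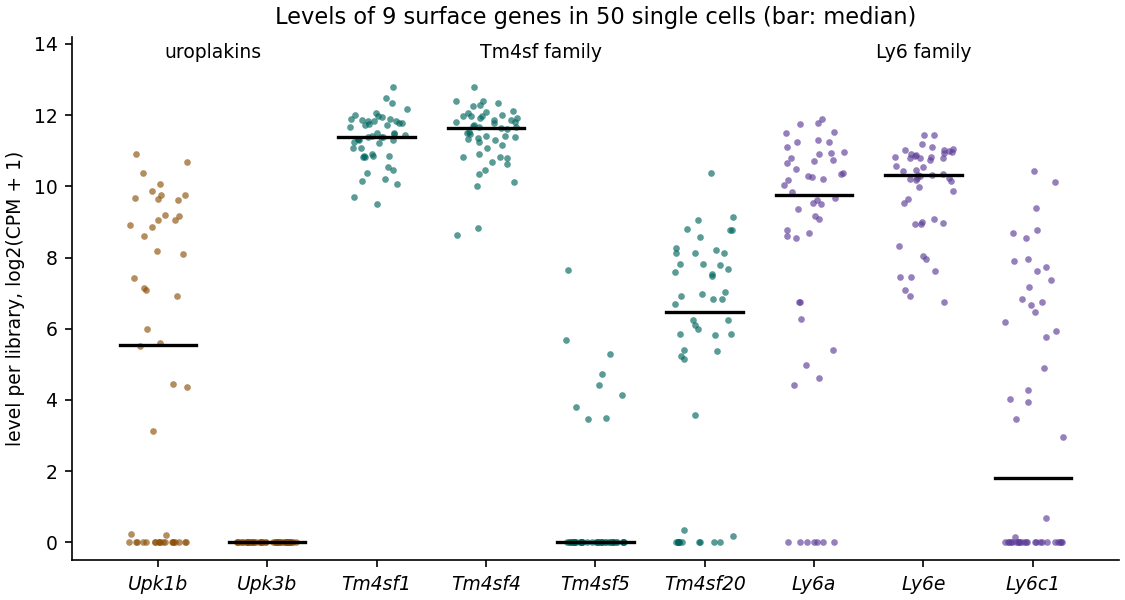
Level of each gene in each of the 50 libraries on the log2(CPM + 1) scale, 1 point per library and a bar at the median, coloured by family. Tm4sf1, Tm4sf4 and Ly6e formed continuous bands above 0, while Upk1b, Tm4sf20, Ly6a, Ly6c1 and Tm4sf5 each had libraries at 0 and libraries well above it.

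Among the uroplakins, Upk1b had the widest spread of the 9 genes. Its CPM ran from 0 through a median of 46.1 to 1906, and its mean level was 4.75 ± 4.35 (SD, n = 50) on the log2(CPM + 1) scale. It was at 0 in 19 libraries and at 100 CPM or more in 23, so few libraries lay in between. The share of cells above 0 was 62% (exact Clopper-Pearson 95% interval 47.2% to 75.3%, which covers the sampling of cells only). Upk3b, whose product partners that of Upk1b, was at 0 in 50 of 50 libraries. A count of 0 in 50 cells allows a share of cells with a Upk3b count of up to 6% by the 3-count limit and 7.11% by the exact interval, which limits detection and not expression below the reach of these libraries. Of 3 other uroplakin genes listed, 1 had a row. Upk3bl, a gene related to Upk3b, was above 0 in 23 libraries with a highest value of 32.5 CPM.

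Other genes that mark bladder lining were found in part. Of 11 listed urothelial genes with a row, 5 were above 0 in at least 25 libraries, a share near the 48.6% of all genes, and 3 were when 1 CPM was required. Pparg, a nuclear receptor of urothelial differentiation, had a mean level of 6.55 ± 1.74, and Krt20, a keratin of the bladder surface that gut epithelium also makes, 6.22 ± 2.63 (SD, n = 50). Outside the rule for naming genes, and chosen after its values were seen, Elf3, an epithelial transcription factor, was at 5.86 ± 2.14 and above 0 in 46 libraries. Gata3 and Krt13, chosen in the same way, were above 0 in 43 and 28 libraries but reached 1 CPM in only 7 and 19. Krt5 and Trp63, of the basal layer, chosen in the same way, were above 0 in 3 and 2 libraries and never reached 1 CPM. Snx31, a sorting nexin known to bind uroplakins, was at 0 in all 50. The rank correlation of Upk1b over 50 libraries was -0.11 with Pparg, 0.21 with Krt20, -0.39 with Elf3, -0.30 with Krt13 and 0.12 with Gata3. Of 8 mesothelial genes with a row, only Msln was above 0 in at least 25 libraries, against 48.6% of all genes. Wt1, Lrrn4 and Pdpn were at 0 in all 50.

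In the Tm4sf family, Tm4sf1 ran from 730 through a median of 2698 to 7115 CPM, and Tm4sf4 from 394 through 3155 to 7099. Their mean levels were 11.34 ± 0.70 and 11.42 ± 0.83 (SD, n = 50) on the log2(CPM + 1) scale, the narrowest spreads among the 9 genes apart from Upk3b. The highest library exceeded the lowest by 9.75-fold for Tm4sf1 and 18-fold for Tm4sf4. No cell of the 50 lacked either gene.

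Tm4sf20 and Tm4sf5 were present in part of the cells. Tm4sf20 ran from 0 through a median of 89 to 1327 CPM and was above 0 in 78% of cells (64% to 88.5%). Its top value, in library 1, was well above the next, 567 CPM. Tm4sf5 was above 0 in 9 libraries, 18% (8.58% to 31.4%), and library 35 alone held 52.2% of its summed CPM. That library had 201 CPM and the next highest 50.8 and 38.2. The mean of Tm4sf5 was 7.71 CPM with library 35 and 3.76 without it. Where Tm4sf5 was present, its lowest value was 10.1 CPM. Tm4sf20 was also at or above 1 CPM in all 9 of these libraries, and Ly6c1 was at 0 in all 9.

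In the Ly6 family, Ly6e ran from 107 through a median of 1271 to 2804 CPM, with a mean level of 9.89 ± 1.30 (SD, n = 50). Ly6a ran from 0 through 868 to 3807 CPM, with a mean level of 8.21 ± 3.83. Ly6a was at 0 in 7 libraries, and its lowest value above 0 was 20.2 CPM. Ly6c1 was the scarcest of the 3, from 0 through 3.66 to 1387 CPM with a mean level of 3.41 ± 3.70, and was at 0 in 23 libraries. The share of cells above 0 was 86% (73.3% to 94.2%) for Ly6a and 54% (39.3% to 68.2%) for Ly6c1.

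Every one of the 25 libraries with at least 1 CPM of Ly6c1 also had Ly6a, while 18 libraries had Ly6a without Ly6c1 and 7 had neither. The 2 did not stand in a fixed ratio. In the 25 libraries Ly6c1 was between 0.512% and 63.3% of Ly6a (median 7.84%). Of the 24 libraries with at least 1000 CPM of Ly6a, 5 had under 1 CPM of Ly6c1. In library 31, by contrast, Ly6c1 was at 1387 CPM beside 2191 CPM of Ly6a. Ly6c2 never exceeded 1.22 CPM.

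The cell types from which Ly6a and Ly6c1 are best known left few traces. None of 8 endothelial genes with a row was above 0 in at least 25 libraries, against 48.6% of all genes. Pecam1, Cdh5, Kdr, Tek, Emcn and Vwf were at 0 in all 50. The endothelial sum ran from 0 to 215 CPM (median 0), nearly all of it Egfl7, with 20 libraries above 0. Of 6 blood progenitor genes, Kit, Flt3, Slamf1, Gata2 and Tal1 were at 0 in all 50 libraries, and Cd34 was above 0 in 3. None of 9 immune genes passed the same count, with a highest sum of 33.5 CPM. Red blood cell genes summed to at most 23.1 CPM. Of 9 fibroblast genes, Acta2 and Col1a1 were above 0 in at least 25 libraries, neither at 1 CPM in that many, and 5 were at 0 throughout.

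Levels were compared between genes per kilobase, with each gene's median length of protein-coding transcripts in GENCODE M21. Mean levels of log2(CPM per kilobase + 1) were 10.84 for Tm4sf4, 10.23 for Tm4sf1, 10.22 for Ly6e, 8.40 for Ly6a, 4.90 for Tm4sf20, 4.22 for Upk1b, 3.86 for Ly6c1, 0.85 for Tm4sf5 and 0 for Upk3b. Among 16965 genes with a length, Tm4sf4 ranked 38, Tm4sf1 82, Ly6e 84 and Ly6a 425. Tm4sf4 stood above Tm4sf1 in 43 of 50 libraries, but in 4 of 50 when the shortest transcripts were taken and in 47 with the longest. Tm4sf1 stood above Ly6e in 20 of 50, against 40 with the longest and 36 with the shortest transcripts, and Ly6e above Ly6a in 35 of 50, against 19 and 31. The order of the top 4 thus turned on the transcript length. Tm4sf20 and Upk1b differed by 0.68 ± 3.29 and Upk1b and Ly6c1 by 0.36 ± 4.74 (SD of the difference, n = 50), less than their spread between cells.

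Correlations among the genes are a description, since the choice of members had used how some of them vary in these libraries. Of the 28 pairs of the 8 detected genes, 21 had a positive and 7 a negative Spearman rho over the 50 libraries, which share 1 culture. Over all tested genes the share with a positive rho ran from 49.4% for Tm4sf4 to 60% for Upk1b among the 7 members above 0 in at least 25 libraries. In 8 pairs rho was at least 0.4, and in 3 it was -0.4 or lower. The share of all other tested genes, those above 0 in at least 25 libraries, that reached 0.4 was 2.5% for Upk1b, 0.528% for Tm4sf1, 0.797% for Tm4sf4, 0.463% for Tm4sf5, 1.22% for Tm4sf20, 1.96% for Ly6a, 1.23% for Ly6e and 1.36% for Ly6c1. The share at -0.4 or lower was 0.851%, 0.302%, 0.334%, 0.172%, 0.388%, 1.02%, 1.1% and 0.668% in the same order.

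**Figure D2:**
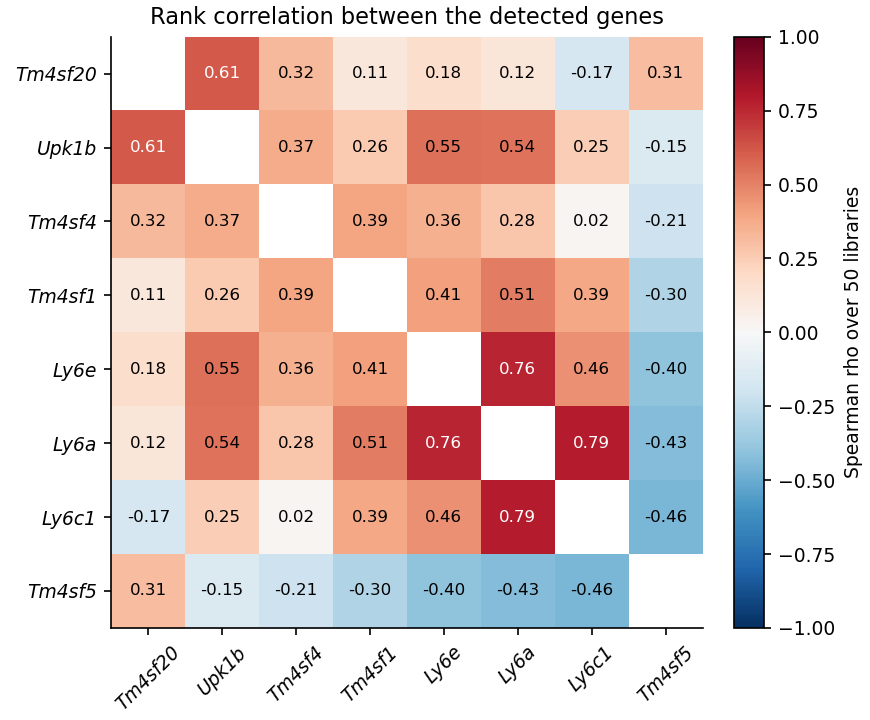
Spearman rho over 50 libraries for each pair of the 8 detected genes, printed in the cell and shown by colour from blue (negative) to red (positive). Ly6a, Ly6e and Ly6c1 form a red block, Upk1b and Tm4sf20 a red pair, and Tm4sf5 a blue edge against the Ly6 genes.

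Ly6a was correlated with both other Ly6 genes from cell to cell. Ly6a and Ly6c1 had rho = 0.79 and Ly6a and Ly6e rho = 0.76, while Ly6e and Ly6c1 had 0.46, which was 0.18 over the 27 libraries with both above 0. Among 9281 genes ranked by rho with Ly6a, Ly6c1 came 1st and Ly6e 2nd, and Ly6a came 1st for each of them. Shared words between transcripts touch the pair Ly6a and Ly6c1. Ly6e shared none with either, though only 52% of its values above 0 were whole numbers. The values were 0.84, 0.77 and 0.54 within blocks of 12 label numbers, a possible handling batch. Pearson r on the log2 scale was 0.62 for Ly6a with Ly6c1 and 0.88 for Ly6a with Ly6e.

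Upk1b and Tm4sf20 formed the second pair, at rho = 0.61 and 0.66 within blocks. At 1 CPM, 28 libraries had both genes, 9 had Tm4sf20 alone, 1 had Upk1b alone and 12 had neither. Upk1b was therefore almost never found without Tm4sf20, but Tm4sf20 was at 1 CPM or more in 37 of the 50 libraries. The same counts held for Upk1b with Ly6a, 28 libraries with both and 1 with Upk1b alone, and Ly6a reached 1 CPM in 43. With the Ly6 genes Tm4sf20 had rho of 0.12 for Ly6a, 0.18 for Ly6e and -0.17 for Ly6c1, and Upk1b had 0.54, 0.55 and 0.25. Both values with Ly6c1 changed sign over libraries with both genes above 0. They were 0.25 for Tm4sf20 (20 libraries) and -0.29 for Upk1b (19 libraries). The value of Tm4sf20 with Ly6c1 was -0.32 with the number of detected genes regressed out. Tm4sf1 and Tm4sf4, on the same chromosome, had rho = 0.39, and Tm4sf1 followed Ly6a more closely, at 0.51.

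Tm4sf5 had negative values with all 3 Ly6 genes. Its rho was -0.40 with Ly6e, -0.43 with Ly6a and -0.46 with Ly6c1, each over 50 libraries of which 9 had Tm4sf5 above 0. In those 9 libraries Ly6a was at 0 in 4, Upk1b was at 0 in 4, and Ly6e ran from 119 to 1765 CPM. Library 21 combined Tm4sf5 at 12.9 CPM with Ly6a at 1924 CPM and Upk1b at 935 CPM, so the genes could occur in 1 cell.

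**Figure D3:**
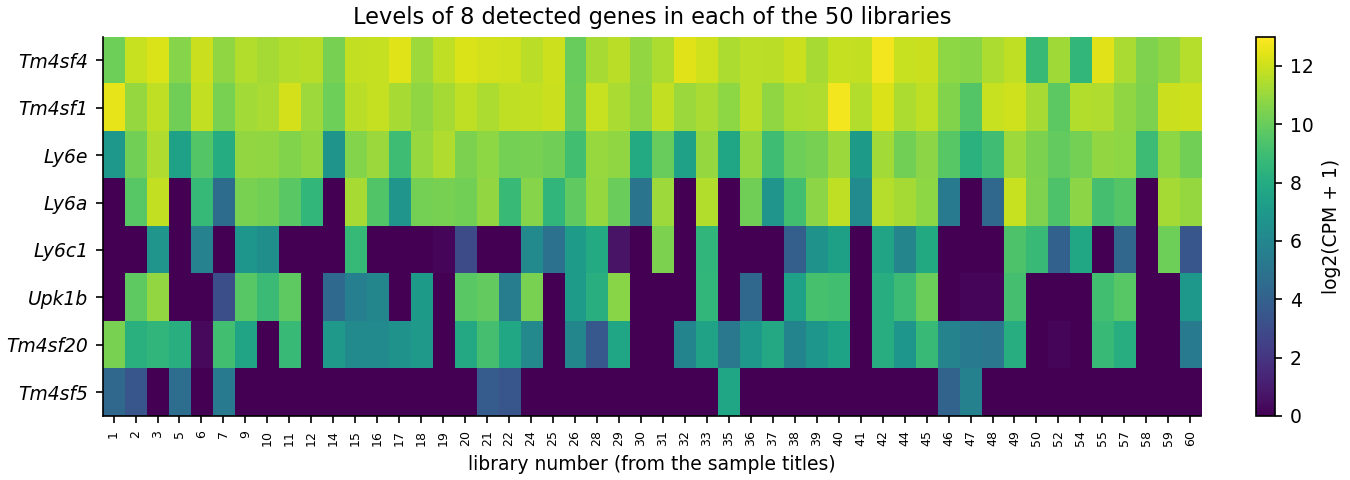
Level of the 8 detected genes (rows) in each of the 50 libraries (columns, in the order of the numbers in the sample titles) as log2(CPM + 1), dark for 0 and yellow for the highest values. The rows of Tm4sf4, Tm4sf1 and Ly6e are filled throughout, and Ly6c1 is filled only in columns where Ly6a is too.

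Outside the families, the genes most like each member differed between the groups of genes. Upk1b was most like Azgp1, a secreted zinc-binding glycoprotein (rho = 0.81), Rgl1, a Ral exchange factor (0.71), and the aldo-keto reductase gene Akr1c13 (0.70), and most opposed to the homeobox gene Nkx2-3 (-0.73) and the RNA-binding protein gene Igf2bp3 (-0.64). Tm4sf20 was most like another aldo-keto reductase gene, Akr1c19 (0.69), the cytochrome b5 gene Cyb5a (0.63) and the galectin gene Lgals2 (0.62). It was most opposed to the homeobox gene Irx3 (-0.57) and to Tsc22d1 (-0.56). All are over 50 libraries and were selected as the extremes of 9281 genes.

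Ly6a was most like S100a4, a calcium-binding protein of motile cells (0.73), Bcap31, an endoplasmic reticulum protein (0.73), and Hprt, a purine salvage enzyme (0.68). It was most opposed to Crip1, a small LIM protein (-0.62), and Tspan13, a tetraspanin (-0.61). Ly6e was most like S100a4 (0.69), the mitochondrial ADP/ATP carrier gene Slc25a5 (0.67) and the growth factor gene Bmp4 (0.66), and most opposed to Tspan13 (-0.66) and Ppp1r1b (-0.58). Ly6c1 was most like the matrix gene Ecm1 (0.62), the guidance gene Sema3a (0.59) and the tubulin gene Tubb2a (0.58), and most opposed to Crip1 (-0.65) and Lad1 (-0.56). Crip1 and Tspan13 thus stood at the negative end of more than 1 Ly6 gene.

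Tm4sf1 was most like Lbh (0.54), the annexin gene Anxa13 (0.52) and Hprt (0.52), and most opposed to Pcyox1 (-0.57) and Tspan13 (-0.52). Tm4sf4 was most like Eps8l3 (0.55), Tmem45b (0.55) and Gch1, the first enzyme of tetrahydrobiopterin synthesis (0.55), and most opposed to Lypla1 (-0.48) and Eno3 (-0.47). Plat, the tissue plasminogen activator, had rho of 0.66 with Upk1b, 0.61 with Ly6a, 0.48 with Ly6e, 0.42 with Tm4sf4, 0.40 with Tm4sf20, 0.32 with Ly6c1, 0.29 with Tm4sf1 and -0.13 with Tm4sf5. Epcam, an epithelial adhesion gene above 0 in 18 libraries, had rho of -0.59 with Ly6e, -0.55 with Ly6a, -0.44 with Ly6c1, -0.42 with Tm4sf1, -0.33 with Upk1b, -0.12 with Tm4sf4, 0.07 with Tm4sf20 and 0.46 with Tm4sf5. Epcam is sparse, so small differences among these values carry little.

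Ly6a and Ly6e are known interferon targets, and other genes of that pathway were listed beside them. Of 34 listed interferon receptors, mediators and targets, 15 were above 0 in at least 25 libraries, a share near the 48.6% of all genes. Of the 15, 0 reached a rho of 0.4 with Ly6a in either direction. Over all tested genes the shares were 1.96% and 1.02%, so 0 of 15 is near the background. Their median rho with Ly6a was 0.012, against 0.007 for all tested genes. The receptor chain Ifngr1 had a mean level of 7.18 ± 1.51 (SD, n = 50) and rho of 0.47 with Upk1b and 0.38 with Ly6a. B2m, the light chain of MHC class I, had 8.12 ± 0.62, with -0.36 and -0.29. Oas1a, Psmb8 and Zbp1 were at 0 in all 50 libraries. The 5 genes of the transamidase that attaches GPI anchors were all above 0 in at least 25 libraries, against 48.6% of all genes. Pigs, at 6.16 ± 1.63, and Pigu, at 6.04 ± 1.73, led them.

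Relatives of the Ly6 genes were listed too. Of 33 other genes of the Ly6/uPAR family, 14 had a row and 19 had none and were not measured. Of the 14, 3 were above 0 in at least 25 libraries, against 48.6% of all genes. Plaur, the urokinase receptor, was at 7.24 ± 1.01 (SD, n = 50) and had rho = 0.37 with Ly6a. Lypd1 was at 2.63 ± 1.08, and Gml was at 0 in all 50.

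Ly6a is also known as a mark of gut epithelium that has returned to a fetal-like state after injury. Of 13 listed genes of that state, 10 were above 0 in at least 25 libraries, against 48.6% of all genes, and 2 reached a rho of 0.4 with Ly6a, against 1.96% of tested genes. Their median rho with Ly6a was 0.109, against 0.007 for all tested genes. Clu, a secreted chaperone, was at 11.25 ± 1.22 and had rho = -0.35 with Ly6a and -0.44 with Upk1b. Anxa3, an annexin, was at 10.33 ± 0.61 and had 0.52 and 0.47. Among genes of neighbouring gut tissues, 6 of 10 intestinal genes were above 0 in at least 25 libraries, against 48.6% of all genes. Lgals4 (10.07 ± 2.19) and Cdh17 (8.42 ± 1.87) led them. Of 8 gastric genes, 2 were, Cldn18 (7.60 ± 0.98) and Anxa10 (4.30 ± 3.41). None of these 6 intestinal and 2 gastric genes had a rho of 0.4 in size with Upk1b or Ly6a. Over all tested genes 2.5% and 1.96% reached 0.4, and 0.851% and 1.02% reached -0.4, so this is near the background.

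The genes that varied with Ly6a, Ly6e and Upk1b were unevenly spread over the chromosomes, a pattern looked for after Bcap31, Hprt and Slc25a5, which are X-linked, had been seen. The X chromosome held 281 of the tested genes, 3.03%. Their median rho with Ly6a was 0.264, against 0.002 for genes elsewhere, and 56 of them reached 0.4, which was 30.8% of the 182 genes that did. For Upk1b the X median was 0.220 and 51 genes reached 0.4, for Ly6e 0.219 and 34, and for Ly6c1 0.204 and 23. For these 4 genes and for Tm4sf1, at 0.129, the X median was the highest of 20 chromosomes. For Tm4sf4 it ranked 2, at 0.080, and for Tm4sf20 it ranked 3, at 0.094, with chromosome 18 first for each. Chromosome 18 also ranked 2 for Upk1b, Ly6e and Ly6a, at 0.176, 0.118 and 0.097. On chromosome 15, where the Ly6 genes lie, the median was 0.048 for Ly6a and for Ly6c1 and 0.069 for Ly6e.

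**Figure D4:**
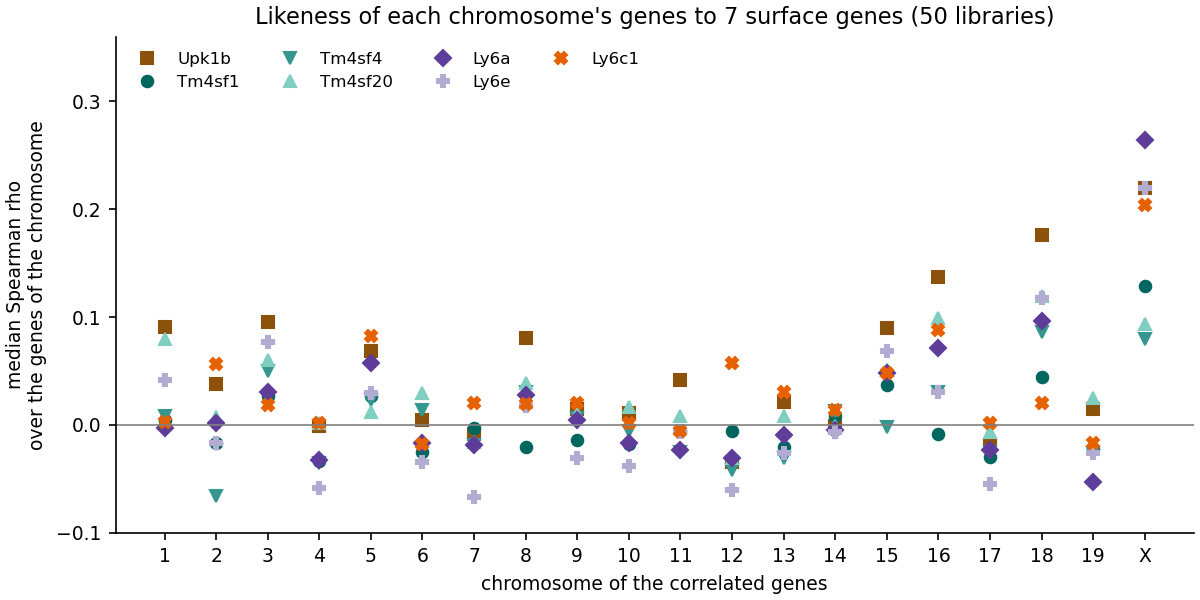
Median Spearman rho (50 libraries) between 7 surface genes and the tested genes of each chromosome, 1 marker shape per surface gene. The X chromosome stands at 0.264 for Ly6a, 0.220 for Upk1b and 0.219 for Ly6e. For Upk1b chromosome 18 stands at 0.176 and chromosome 16 at 0.137, and most other chromosomes lie closer to 0.

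The X pattern was spread along the chromosome. With the tested X genes cut into 4 stretches of 68 or 69 genes by position, the median rho with Ly6a was 0.292, 0.267, 0.210 and 0.245, and with Upk1b 0.210, 0.250, 0.163 and 0.232. With the number of detected genes regressed out of the ranks, the X medians were 0.218 for Ly6a, 0.175 for Upk1b, 0.200 for Ly6e and 0.162 for Ly6c1, each still the highest of 20. Within blocks of label numbers they were 0.283, 0.238, 0.241 and 0.215.

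The cells themselves fell into 2 sets by the X-linked share of their counts. Without Tmsb4x, a very abundant X-linked gene, X-linked genes took between 2.04% and 4.69% of gene counts. No library lay between 2.75% and 3.19%, with 20 libraries below the gap and 30 above it. By the mean scaled level of the X-linked genes the 2 sets overlapped. Library 25, below the gap, was at 0.06 and library 55, above it, at -0.15. Xist, the RNA of X inactivation, was above 0 in 44 libraries but never exceeded 11.4 CPM. The X-linked share had rho = 0.21 with the number of detected genes, -0.03 with the gene counts of a library and -0.35 with its spike-in share. The part of spike-in share in the X pattern was not tested.

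All 7 libraries at 0 for Ly6a lay below the gap, at 2.04% to 2.36%. Of the 19 libraries at 0 for Upk1b, 14 lay below it. Of the 29 libraries with at least 1 CPM of Upk1b, 25 lay above it, as did 21 of the 25 with at least 1 CPM of Ly6c1. In the 30 libraries above the gap the lowest Ly6a value was 386 CPM and the lowest Ly6e value 540 CPM. Below the gap Ly6a ran from 0 to 1292 CPM and Ly6e from 107 to 2804 CPM, so the ranges overlapped. Because the libraries form separate sets by this share, rho with the X-linked share is given within each. It was 0.38 in the 20 and 0.22 in the 30 for Ly6a, 0.30 and 0.50 for Ly6e, 0.18 and 0.40 for Upk1b, 0.17 and 0.00 for Ly6c1, and -0.32 and 0.19 for Tm4sf20.

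**Figure D5:**
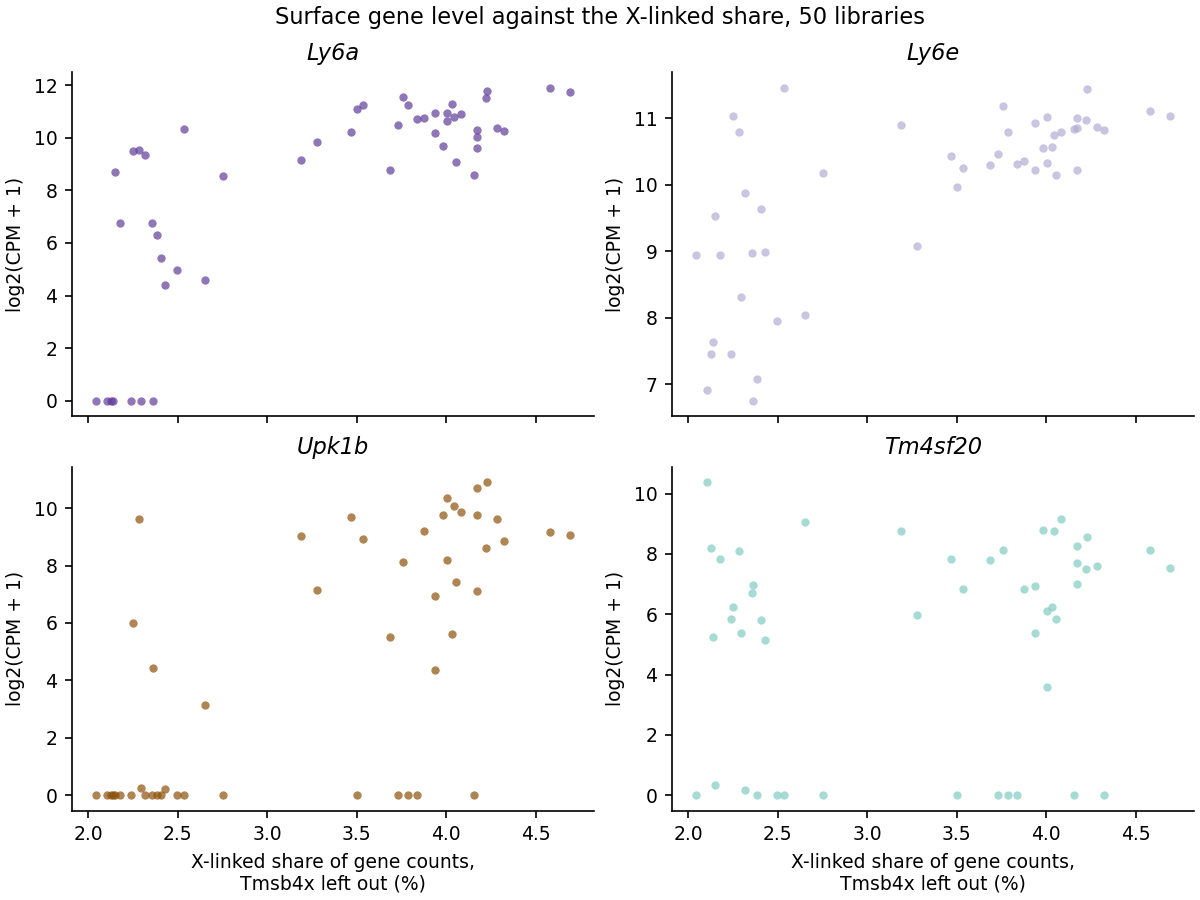
Level of Ly6a, Ly6e, Upk1b and Tm4sf20 as log2(CPM + 1) against the share of gene counts from X-linked genes other than Tmsb4x, 1 point per library. The points fall into 20 libraries up to 2.75% and 30 from 3.19% up, with all 7 Ly6a values of 0 on the left, while Tm4sf20 spans its range on either side.

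The values of some pairs of surface genes differed between these sets, which were drawn after seeing the data, and no difference was tested. In the 20 libraries Upk1b was above 0 in 6 and Ly6c1 in 5, so their values there rest on few cells. Ly6a and Ly6c1 had rho = 0.68 in the 20 libraries and 0.69 in the 30, and Upk1b and Tm4sf20 had 0.40 and 0.72. Ly6a and Ly6e had 0.82 in the 20 and 0.39 in the 30, Ly6e and Ly6c1 had 0.62 and 0.09, and Tm4sf20 and Ly6c1 had -0.32 and -0.38. Upk1b and Ly6a, at 0.54 over all 50, had 0.07 and 0.08, and Upk1b and Ly6e, at 0.55 over all 50, had 0.14 and 0.21. Upk1b and Ly6c1, at 0.25 over all 50, had -0.06 and -0.25. Tm4sf4 and Tm4sf20 had -0.30 in the 20 and 0.70 in the 30, a difference seen among 21 pairs and not tested.

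Richer libraries had more of several genes. The rank correlation with the number of detected genes was 0.44 for Upk1b, 0.35 for Tm4sf20, 0.32 for Ly6c1, 0.27 for Ly6a, 0.23 for Tm4sf1, 0.17 for Tm4sf4, 0.16 for Tm4sf5 and 0.13 for Ly6e. With gene counts per spike-in count it was 0.51 for Upk1b and 0.37 for Ly6a and Ly6c1. With the detected genes regressed out, the pairs Upk1b and Tm4sf20, Ly6a and Ly6c1, and Ly6a and Ly6e had rho of 0.55, 0.77 and 0.76.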

How the data were processed

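RNA was measured in 62 single-cell libraries of 1 culture. The authors deposited estimated counts by gene symbol. The submitters' processing notes name kallisto and mm9. Its version, its annotation and the step from transcripts to genes: not given in the sources used here. Whole numbers (within 1e-06) made up 66.2% of the values above 0. The table held 65 ERCC and 19112 gene rows. Gene symbols that spreadsheet or R handling had changed were put back where that gave a known one (17924 as given, 1094 restored, 94 unmatched).

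Estimated counts were used unrounded, scaled to CPM over gene rows and put on a log2 scale after adding 1. No count model was fitted, since 1 culture has no replicate. Spearman rho was computed over 50 libraries for the 9282 genes above 0 in at least 25, and the procedure was tested on simulated data. The members, gene lists and tests were chosen with earlier results of these data known. The genes named beside each member are the 3 with the highest and 2 with the lowest rho, of at least 0.4 in size, the 2 of highest mean in each list, list genes at 0 throughout, Plat and Epcam; other genes were picked with their values in view. The result for 1 list gene at 0 throughout is not reported here. No list gave a p-value.

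The alternatives were pseudocounts of 0.1 and 10, median-ratio scaling, detection at 1 and 10 CPM, thinning to 2000000 gene counts (rounded first), Pearson r, regression on detected genes and blocks of 12 label numbers. Chosen after seeing the data were the X chromosome, the gap in X-linked share, other transcript lengths and leaving out each library. Intervals cover the sampling of cells only. Chromosomes, promoters and gene order come from RefSeq for GRCm38.p6, transcripts from GENCODE M21, another build than the authors', so no coordinates of the counts are given. Python 3.11.15, numpy 2.4.6, pandas 2.3.3, scipy 1.17.1 and matplotlib 3.10.9 were used.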

Additional observations from a re-analysis of the deposited data

Results flagged for a closer look

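The 12 libraries with a spike-in share between 22.3% and 97.2%, left out above, still held surface gene reads beyond the limit of 3 counts that a 0 allows. Tm4sf1 exceeded 3 counts in 10 of the 12, Tm4sf4 in 6, Ly6e in 4, Ly6a in 3, Upk1b in 2 and Tm4sf20 in 2. Tm4sf5, Ly6c1 and Upk3b did so in 0 of the 12. The 12 libraries held between 112196 and 1133747 gene counts. Library 43, with a spike-in share of 71.1%, had 2040 CPM of Tm4sf1, 3088 of Tm4sf4, 786 of Ly6e, 683 of Ly6a, 457 of Upk1b and 123 of Tm4sf20, all within the ranges of the 50. It was unlike the rest of the 12, with 9041 detected genes against a median of 1940. Without it, more than 3 counts were found in 9 libraries for Tm4sf1, 5 for Tm4sf4, 3 for Ly6e, 2 for Ly6a and 1 each for Upk1b and Tm4sf20.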

How the results depend on the processing

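No paired analysis was possible because all libraries form 1 group. Of 372 alternative values 345 were counted as unchanged, 23 as moved and 4 as reversed. For pairs the limit was the 95% interval of rho, so a small rho could change sign without being counted. Tm4sf20 and Ly6a, for example, had 0.12 over the 50 libraries and -0.17 with the mean X-linked level regressed out. Thinning, detected genes and label-number blocks moved no pair beyond that interval. Over all 62 libraries the mean levels were 10.44 for Tm4sf1, 10.27 for Tm4sf4 and 8.47 for Ly6e, and Ly6e was above 0 in 57 libraries. Pseudocounts of 0.1 and 10 set Tm4sf5 at -1.88 and 3.67 and Upk3b, at 0 throughout, at -3.32 and 3.32 by construction. For Ly6a and Ly6c1, Pearson r was 0.62, or 0.60 with a pseudocount of 0.1, and rho was 0.63 where both were above 0. For Ly6a and Ly6e, Pearson r was 0.88. With the mean X-linked level regressed out, rho was 0.62 for Ly6a and Ly6e, 0.25 for Upk1b and Ly6e and 0.079 for Upk1b and Ly6a. It was 0.21 for Ly6e and Ly6c1, -0.24 for Upk1b and Ly6c1 and -0.44 for Tm4sf20 and Ly6c1. That X-linked level had rho = 0.66 with the number of detected genes and 0.54 with the mean level of autosomal genes. The cause of these moves was not tested. Leaving out each library in turn kept Ly6a and Ly6c1 between 0.78 and 0.82, Ly6a and Ly6e between 0.75 and 0.79, Upk1b and Tm4sf20 between 0.60 and 0.68, Upk1b and Ly6e between 0.53 and 0.61, Upk1b and Ly6a between 0.51 and 0.59, Tm4sf1 and Ly6a between 0.49 and 0.59 and Tm4sf1 and Tm4sf4 between 0.36 and 0.47. The order per kilobase reversed for Tm4sf4 over Tm4sf1 (4 of 50, shortest transcripts), Tm4sf1 over Ly6e (40 longest, 36 shortest) and Ly6e over Ly6a (19, longest). Requiring 1 CPM left 3 urothelial and 0 fibroblast genes found in at least 25 libraries. At a depth of 2153895 gene counts in the shallowest library, a 0 does not show that a cell lacked the RNA.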
